A study of Mus musculus with 120 samples.

Results

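CC042 is an inbred mouse line of the Collaborative Cross, a panel of lines that each carry their own mosaic of a shared set of founder genomes. Its liver RNA on the control diet was set against that of 7 other lines of the panel on the same diet. The members were the 6 control-diet libraries labelled CC042, of 120 libraries in the series: 3 from male livers and 3 from female livers. They were compared with 41 control-diet libraries of CC011, CC013, CC019, CC032, CC040, CC041 and CC043, chosen by their labels alone: 6 of each line, and 5 of CC040. The series covers 10 lines, both sexes and 2 diets, a high-fat and high-sucrose (HF/HS) diet and a control diet of matched ingredients that holds little fat and less sucrose, each group sampled after 12 weeks. The CC042 and the other livers were all from mice on the control diet, and no label names a transgene, an engineered allele or an agent other than diet. The labels state neither the age of the mice nor whether each library is a different mouse, so the p-values reflect how these libraries and lines vary, which may be technical within a group. CC003 and CC060 were kept out of the comparison because their libraries stand apart in RNAs that lack a usual poly(A) tail: Rmrp was 0.663 to 14 units in CC060, against 9530.2 to 22934 units in the 7 lines, and the small nucleolar RNA Snord104 was 751716 to 929515 units in CC003, against 16684 to 95492 units. CC003 did not stand apart in every such RNA. Its Rmrp, at 7965 to 10922 units, overlapped the 7 lines and its Malat1 lay within their range, while its Rpph1 lay below it. The labels name a total RNA kit and an mRNA kit for every library and do not say which was used where. In addition, 1 CC040 female column was left out because it equals a CC040 female HF/HS column in every row compared.

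An inbred line fixes 1 allele at each locus, so a gene whose regulation or copy number differs between founder genomes is inherited as a stable high or low level in every animal of a line. The liver is the source of most plasma proteins, which include clotting factors, complement and the acute-phase proteins that hepatocytes release on inflammatory signals, and of the enzymes that oxidise and conjugate foreign compounds. In male and female mice it also makes different sets of major urinary proteins and P450 enzymes. CC042 is known for a spontaneous deletion in Itgal, which encodes the alpha chain of the leukocyte integrin LFA-1.

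The deposited values are FPKM-like (reads scaled by transcript length and library size), rescaled by the authors so that the 75th percentile over all rows is close to 10 in each library; they are called units here, and the number of reads behind them is unknown. The sum of values was 1149880 to 1215100 in CC042 libraries and 964482 to 1365520 in the other libraries, and 33.7% to 34.9% of rows were at 0 in CC042 libraries, against 30.6% to 35.5%. Xist and 4 Y-linked genes matched the sex label of all CC042 libraries. Of the liver markers, Ttr, a thyroid hormone carrier, was 5019 to 5279 units in male and 5737 to 6503 units in female CC042 livers, against 6391 to 10099.6 units in male and 5587 to 11899 units in female livers of the others. Hnf4a was 279 to 310 units in male CC042 livers, against 185 to 291 units in other males. Female Hnf4a values, and Apoa1, Trf and Cps1 in both sexes, lay within the ranges of the others. The summed level of 11 listed hepatocyte markers, with Alb among them at 0, was 43095 to 45892 units in male and 41669 to 50413 units in female CC042 livers, against 32458 to 61863 units in male and 25461 to 52578 units in female livers of the other lines. Alb was listed at 0 in all 47 libraries, so an exact 0 in this table can be a failed estimate. In whole liver, fewer cells of a type and less RNA per cell cannot be told apart.

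The first comparison asked which genes of CC042 lie outside the range of the other lines. Each line gave 1 value per gene, the mean of its male and its female mean of log2(value + 1), and limma compared CC042 with the spread of the 7 other lines; genes whose adjusted p was under 0.05 are named as called, with Benjamini-Hochberg adjustment over all 12065 rows tested. With 1 line against 7, CC042 is assumed to vary like the others, and a permutation over 8 lines could not go below an exact p of 0.125. Of the 12065 rows, 42 were called (0.348%), 29 higher in CC042 (0.24%) and 13 lower (0.108%), which are 37 distinct symbols. In 34 of the 42 rows no CC042 library overlapped any of the 41 others, 23 of them higher and 11 lower, against 1.24% of all rows tested (0.671% higher and 0.572% lower). The calls were made on these same values, so a high share without overlap follows from the selection and is not separate support. Large differences included a very low value of Rprl3, a copy of the RNase P RNA gene, a high level of Cwc22, a splicing factor gene, and low levels of Mup3, Gstm2 and Orm1. At an unadjusted p under 0.05, 573 rows differed.

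**Figure D1:**
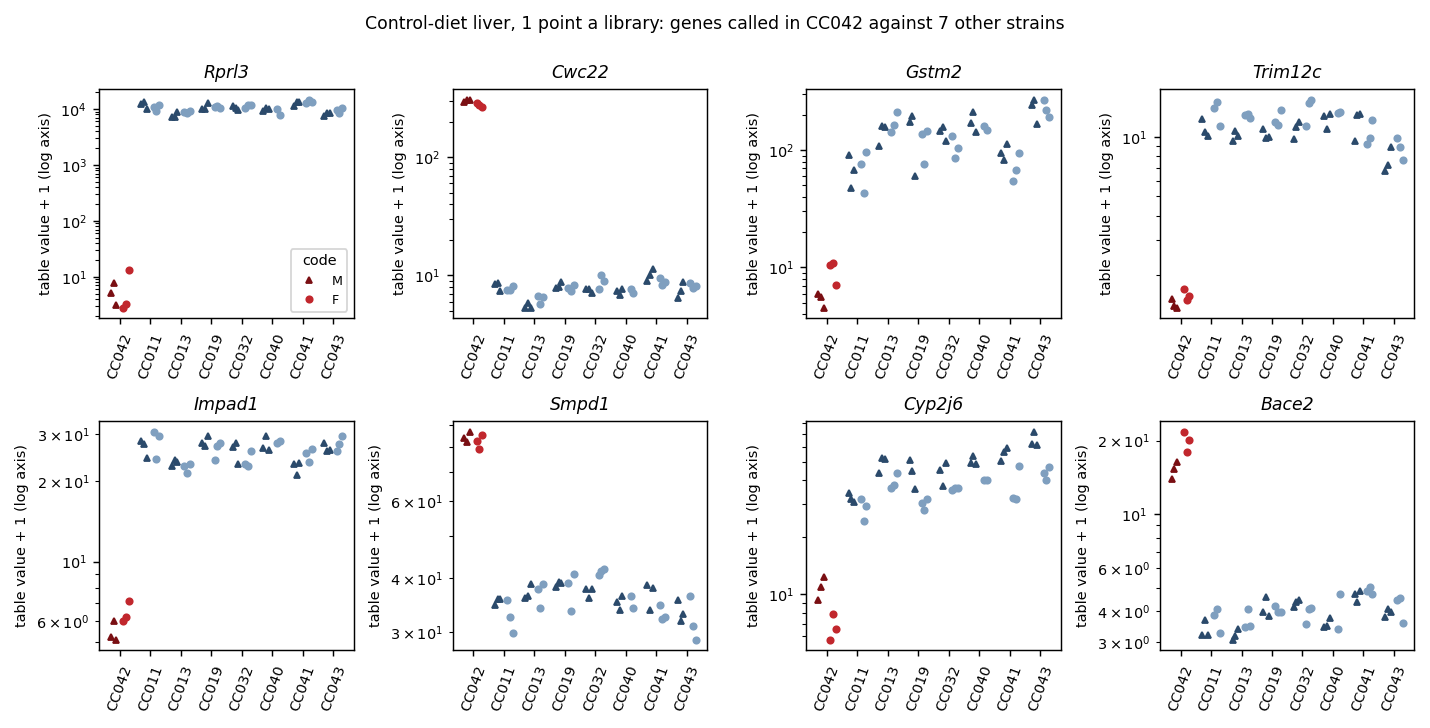
Table value + 1 (log axis) of 8 called genes in each control-diet library, with CC042 in red at the left of the 7 other lines in blue; triangles are male and circles female livers. All 6 CC042 points lie on one side of all 41 others, for example Cwc22 at 267 to 307 units against 4.32 to 10.4 units and Impad1 at 4.11 to 6.15 units against 20.1 to 29.6 units.

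Rprl3 had the lowest p of all genes. Rprl3 is a relative of Rpph1, the gene of the RNA subunit of ribonuclease P, the enzyme that trims the 5' end of transfer RNA precursors. Its level was 4.05, 6.66 and 2.15 units in male and 1.78, 2.19 and 12.4 units in female CC042 livers, against 7174 to 14814 (median 10381) units in the 41 livers of the other lines. Every CC042 liver of both sexes was far below the lowest other liver. The difference on the log2(value + 1) scale, CC042 minus the mean of the 7 lines, was -11.02 ± 0.25 SE with adjusted p = 7.84e-07. Rprl2, a second relative on another chromosome, was listed at 0 in all 6 CC042 livers, against 5.91 to 28.7 (median 15.1) units, and was called lower (adjusted p = 0.00498). An exact 0 in these data can be a failed estimate, and Rprl2 was also at 0 in every CC003 and CC060 control library. Rpph1 itself was 44612, 44454 and 48000.4 units in male and 61745, 56234 and 67359 units in female CC042 livers, against 20256 to 38648 (median 28906) units, so all 6 CC042 livers lay above all others; its difference of 0.87 ± 0.21 SE with adjusted p = 0.389 did not pass the test between lines. Rmrp, the RNA of the related enzyme RNase MRP, stayed within the range of the other lines, at 13376 to 18416 units in CC042 livers against 9530.2 to 22934 units in the others.

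The annotated transcript of Rprl3 is shown because it and Rpph1 share most of their sequence, so reads can be split between them and the value of each is uncertain. In an alignment, 248 of 284 aligned bases (87.3%) were identical between Rprl3 and Rpph1, 247 of 284 (87%) between Rprl2 and Rpph1, and 267 of 290 (92.1%) between Rprl3 and Rprl2. It is read 5' to 3' from GENCODE M21 on GRCm38, at chr8:3803069-3803358 on the minus strand, and was aligned to Rpph1 at chr14:50807449-50807767 on the minus strand; the table places Rprl3 at chr8:3803125-3803361. Capitals in Rprl3 mark bases that differ from the aligned base of Rpph1 or have none.
Rprl3: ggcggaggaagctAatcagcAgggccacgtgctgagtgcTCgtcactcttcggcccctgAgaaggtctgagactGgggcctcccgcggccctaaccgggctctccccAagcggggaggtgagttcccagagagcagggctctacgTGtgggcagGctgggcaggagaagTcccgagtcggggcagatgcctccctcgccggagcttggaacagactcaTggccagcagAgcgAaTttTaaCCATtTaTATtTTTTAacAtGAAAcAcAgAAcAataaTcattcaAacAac
Most capitals lie toward the 3' end of Rprl3, and the 5' part is nearly the same in both.

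Among the genes higher in CC042, Cwc22 stood first. Cwc22 encodes a spliceosome protein needed for loading the exon junction complex, and lies (chr2:77895653-77946356, mm10) in a segment of chromosome 2 that is known to vary in copy number between mouse strains. It was 293, 303 and 307 units in male and 286, 273 and 267 units in female CC042 livers, against 4.32 to 10.4 (median 6.67) units in the other lines. All 6 CC042 values were within a narrow band far above the rest, with males slightly above females. The difference was 5.22 ± 0.21 SE with adjusted p = 3.63e-05. Fam171b, at chr2:83812728-83881358 on the same chromosome, was 14.1, 13.3 and 11.9 units in male and 2.19, 2.37 and 2.19 units in female CC042 livers, against 0.0584 to 1.4 (median 0.314) units. No library overlapped, but its difference of 2.24 ± 0.35 SE with adjusted p = 0.0522 did not pass the threshold. Fam171b also entered the test only through CC042, since its mean in the other lines was under the minimum of 1 unit.

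Rims4, a gene of presynaptic release sites, was 5.37, 5.3 and 4.02 units in male and 23.6, 26.6 and 13.8 units in female CC042 livers, against 0 to 2.09 (median 0.102) units (difference 3.26 ± 0.23 SE with adjusted p = 0.00188). Il1f9, the gene of the cytokine IL-36 gamma, was 16.5, 17.1 and 20.7 units in male and 17.6, 16.6 and 15.4 units in female CC042 livers, against 0.73 to 6.25 (median 1.79) units (difference 2.60 ± 0.40 SE with adjusted p = 0.0493). Susd2, a sushi-domain membrane protein gene, was 5.32, 4.02 and 2.34 units in male and 18.2, 17.7 and 14.9 units in female CC042 livers, against 0.442 to 2.02 (median 1.1) units (difference 2.17 ± 0.24 SE with adjusted p = 0.0105). In all 3 genes every CC042 liver was above every other liver; Rims4 and Susd2 were higher in female than in male CC042 livers, and Il1f9 was alike in both sexes. Rims4 met the minimum mean of 1 unit through CC042 alone, as did 5 other called rows (Trat1, Synj2, Snord4a, Mir3105 and Mir192), so their tests are on genes let in by the group in which they are high. Il1f9 passed by little and was not called without line CC011, CC013, CC019, CC032, CC041 or CC043 or without library CC011 female 3, CC013 female 3, CC013 male 2, CC013 male 3, CC019 female 1, CC032 female 2, CC040 female 1, CC040 male 2, CC041 female 3, CC041 male 2, CC042 male 3, CC043 female 1, CC043 male 1 or CC043 male 2 (adjusted p from 0.0507 to 0.116).

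Bace2, which encodes the aspartyl protease beta-secretase 2, was 12.9, 14.3 and 15.4 units in male and 20.8, 17 and 19.2 units in female CC042 livers, against 2.05 to 4.01 (median 2.97) units (difference 2.14 ± 0.18 SE with adjusted p = 0.00358). Smpd1, the gene of lysosomal acid sphingomyelinase, was 83.1, 81 and 86 units in male and 81.9, 78.2 and 84.6 units in female CC042 livers, against 27.8 to 40.9 (median 34.9) units (difference 1.22 ± 0.12 SE with adjusted p = 0.00652). Neither had any overlap, and Smpd1 was nearly the same in the 6 CC042 livers. The other named genes that rose were Synj2, an inositol phosphatase gene (1.26), Ctps2, a CTP synthase gene (1.22), Ide, the insulin-degrading enzyme gene (1.11), Upf3a, a factor of nonsense-mediated decay (1.04) and Mzt2, a gene of the gamma-tubulin complex (0.94), all log2 differences, with adjusted p = 0.0395 or lower and no overlap of libraries. Ide was 74.2 to 94.8 units in CC042 livers and 29.4 to 53.5 units in the others, and Ctps2 was 7.67 to 10.5 units and 2.43 to 5.48 units. Ide was not called without line CC011, CC032, CC040, CC041 or CC043 (adjusted p from 0.0737 to 0.0954). Upf3a was not called without line CC019 or CC043 (adjusted p from 0.0501 to 0.0607), Mzt2 was not called without line CC019 or CC032 (adjusted p from 0.0501 to 0.0561), and Synj2 was not called without line CC032 (adjusted p = 0.0564). Ctps2 overlaps S100g, and Synj2 overlaps Serac1, on the opposite strand; whether the authors' counting used strand is not given in the sources used here.

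Some calls rest on short RNA genes seen in few libraries. Mir6400, which lies inside Decr1, was 0, 380.2 and 0 units in male and 0, 488 and 296 units in female CC042 livers, and 40 of the 41 other livers were at 0. Snord4a, Mir3105 and Mir192 were each above 0 in 1 CC042 library, at 2412 units (female 2), 643 units (male 3) and 395 units (female 3), and at 0 in the other 46 libraries, so no fold is given. Without that library each difference is 0. Mir6400 was not called without library CC013 male 1, CC013 male 3 or CC042 male 2 (adjusted p from 0.0679 to 0.0863), and its difference was 2.68 without CC042 male 2.

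Of 42 conjugating enzyme genes tested, 2 were called, both lower, against 0.108% of all rows called lower. Glutathione S-transferases join glutathione to reactive compounds; the mu-class genes sit side by side on chromosome 3. Gstm2 (chr3:107981702-107986436) was 4.99, 4.57 and 3.53 units in male and 9.47, 9.9 and 6.08 units in female CC042 livers, against 42.4 to 269 (median 140.5) units in the other lines (difference -4.14 ± 0.56 SE with adjusted p = 0.0269). Gstm6 (chr3:107938848-107943749) was 18.5, 16.4 and 15.5 units in male and 28.2, 33 and 19.9 units in female CC042 livers, against 41.9 to 230.1 (median 87.6) units (difference -2.08 ± 0.30 SE with adjusted p = 0.0376). Neither gene had a CC042 liver inside the range of the other lines. Gstm2 was not called without line CC013, CC019, CC032 or CC040 (adjusted p from 0.051 to 0.0765), and Gstm6 was not called without line CC011, CC013, CC019 or CC032 or without library CC019 male 2, CC041 female 1 or CC041 male 1 (adjusted p from 0.0528 to 0.0901).

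The neighbours of these genes went both ways without passing the test. Gstm7 was 191, 200.2 and 206 units in male and 320.1, 317 and 277 units in female CC042 livers, against 36.8 to 135 (median 63.5) units, all 6 above all others (difference 1.83 ± 0.35 SE with adjusted p = 0.138). Gstm3 was 2.87 to 7.56 units in CC042 livers and 4.01 to 187 units in the others, Gstm5 was 8.7 to 13.6 and 8.58 to 31.4 units, Gstm1 was 297 to 840.3 and 419.8 to 2193 units, and Gstm4 was 32.5 to 56.1 and 20.3 to 57.6 units. The 7 genes are similar in sequence, so reads shared between them make single values uncertain. Over the 42 genes the median log2 difference was -0.04, against 0.00 over all rows tested, and it was -0.25 in males and 0.02 in females.

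**Figure D2:**
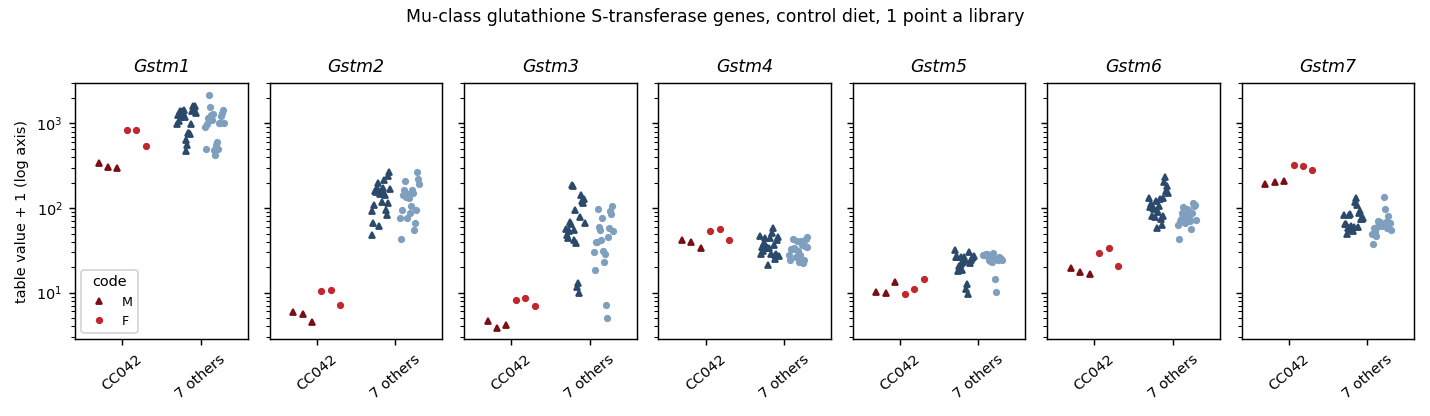
Table value + 1 (log axis) of the 7 mu-class glutathione S-transferase genes, 1 point a control-diet library, with CC042 (red) left of the 7 other lines (blue), triangles male and circles female. Gstm2 and Gstm6 lie below and Gstm7 above all other libraries, while Gstm1, Gstm3, Gstm4 and Gstm5 overlap them.

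Mup3, a major urinary protein gene that male livers secrete in quantity, was 401, 407 and 415 units in male CC042 livers, against 10414 to 24739 (median 16987) units in male livers of the other lines. In female CC042 livers it was 36.4, 55 and 37.7 units, against 408 to 7467 (median 855) units. Within each sex the CC042 livers lay far below all others, although male CC042 and female other livers meet. The difference was -5.12 ± 0.74 SE with adjusted p = 0.0395, and Mup3 was not called without line CC011, CC019, CC032, CC041 or CC043 or without library CC040 female 1 (adjusted p from 0.0512 to 0.0954). Of the 24 rows of the major urinary protein list no other was called; the genes are near-identical copies, and Mup20, the gene of the male pheromone darcin, was 24852, 31256 and 36436 units in male CC042 livers and 321 to 22761 units in male livers of the others.

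Orm1 encodes orosomucoid, an acute-phase plasma protein that binds drugs. It was 1513, 1168 and 785 units in male CC042 livers, against 1096 to 2891 (median 1637) units in male livers of the other lines. In female CC042 livers it was 10.6, 6.13 and 28.1 units, against 879 to 4642 (median 1364) units. Female CC042 livers were far below all others, and male CC042 livers overlapped other males, with a difference over both sexes of -3.70 ± 0.32 SE with adjusted p = 0.00358; from males alone it was -0.56 (adjusted p = 0.908). On HF/HS Orm1 was 114, 63.8 and 70.03 units in male and 72.1, 84.5 and 27.8 units in female CC042 livers, against 746 to 25040.1 units, low in both sexes.

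Cyp2j6, a P450 gene of the epoxygenase family, was 8.38, 9.87 and 11.4 units in male and 4.75, 6.91 and 5.55 units in female CC042 livers, against 23.5 to 71.2 (median 39) units (difference -2.28 ± 0.26 SE with adjusted p = 0.0111). Impad1, the gene of a Golgi phosphatase that clears a by-product of sulfation, was 4.25, 4.98 and 4.11 units in male and 4.99, 5.24 and 6.15 units in female CC042 livers, against 20.1 to 29.6 (median 25.1) units (difference -2.12 ± 0.13 SE with adjusted p = 0.000802). Cptp, the ceramide-1-phosphate transfer protein gene, was 6.85, 5.89 and 6.59 units in male and 7.12, 6.29 and 6.32 units in female CC042 livers, against 14 to 25.2 (median 18) units (difference -1.35 ± 0.13 SE with adjusted p = 0.00498). All 6 CC042 livers were below all others in these 3 genes. Cyp2j5, another gene of the family, was 96.9 to 205 units and 278 to 571 units, with no overlap and an adjusted p of 0.0628.

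Eno1, the gene of the glycolytic enzyme enolase, was 60.8, 54 and 70.7 units in male and 79.6, 92 and 85.4 units in female CC042 livers, against 216 to 465 (median 302) units (difference -2.05 ± 0.18 SE with adjusted p = 0.00358). The table also lists Eno1b, its near-identical retrogene, in 2 rows. The Eno1b row placed at the Eno1 locus was 128 to 135 units in male and 137 to 167 units in female CC042 livers, against 0.0064 to 54.3 units in male and 0.0048 to 47.7 units in female livers of the others. Summed over the 3 rows, CC042 males were at 326 to 350.1 units and other males at 311 to 651 units, and CC042 females were at 402 to 436 units and other females at 307 to 537 units. The sums overlapped in both sexes, so the low Eno1 value cannot be told apart from reads divided differently among the copies.

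Trim12c, a tripartite-motif gene of a family with members that restrict retroviruses, was 0.51, 0.398 and 0.364 units in male and 0.708, 0.499 and 0.571 units in female CC042 livers, against 5.7 to 14.5 (median 10.3) units (difference -2.90 ± 0.22 SE with adjusted p = 0.00238). Every CC042 liver was below every other liver. Its promoter is shown because its value was low in every CC042 liver, and because family members respond to interferon. A low value does not by itself show that the RNA is absent, and how reads were shared with related genes was not tested. The RefSeq promoter (250 bases before to 50 after the start, GRCm38.p6, chr7:104353300-104353599, minus strand) is the reference sequence, not that of CC042. Capitals mark the only match to TTTC, any pair of bases and TTTC, the core of the interferon response element, searched on both strands.
Trim12c: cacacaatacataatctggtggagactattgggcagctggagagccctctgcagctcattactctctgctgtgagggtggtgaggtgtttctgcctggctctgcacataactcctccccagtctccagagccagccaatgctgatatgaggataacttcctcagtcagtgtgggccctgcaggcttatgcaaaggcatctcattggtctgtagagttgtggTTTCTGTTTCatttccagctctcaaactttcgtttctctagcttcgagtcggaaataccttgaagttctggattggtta
The match starts 29 bases before the transcription start, and 1131 of 32851 RefSeq promoters of that length (3.44%) hold 1 or more. Of the 44 interferon response rows tested, none was called, and their median log2 difference was -0.01, with 0.19 without line CC013 and -0.15 without line CC043.

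The called rows were uneven over the genome: 15 lay on chromosome 2, which holds 7.72% of tested rows, and 8 on chromosome 4, which holds 6.45%. The longest run of called rows, each within 1 Mb of the next, spanned chr2:175185165-176927813 with 12 of 33 tested rows, 10 higher and 2 lower. Its 7 symbols, Gm14391, 0610010B08Rik, Gm6710, Gm4724, Gm14430, Gm14296 and Gm14308, name repeated and mostly near-identical copies, several of them listed more than once, so levels of single rows are uncertain. The rows of Gm6710 had the largest difference, 2.02, at 13.2 to 29.6 units in CC042 livers and 2.89 to 5.86 units in the others. Gm14296 was lower, at 2.62 to 3.95 units and 8.25 to 19.5 units (-1.48). The called rows left besides these were BC002163, inside Zbtb20 (2.13), Gm5088 (2.06) and 4930480G23Rik (1.34), all log2 differences. The second run was Gstm6 with Gstm2, and every other called row stood alone.

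Other settings ended some of these calls. With a pseudocount of 0.1 Il1f9, Synj2, Ide, Susd2, Mup3, Trat1, Snord4a and Mir192 were not called (adjusted p from 0.0506 to 0.8). With no filter on low values Il1f9, Synj2, Smpd1, Ctps2, Ide, Upf3a, Mzt2, Cptp, Mup3, Gstm2 and Gstm6 were not called (adjusted p from 0.0549 to 0.31). With a minimum mean of 5 Ide, Mup3, Snord4a and Mir192 were not called (adjusted p from 0.0511 to 0.872). With size factor scaling Il1f9 was not called (adjusted p = 0.051). With the CC040 column used as labelled Mir6400 was not called (adjusted p = 0.0516). In females alone Il1f9, Synj2, Ctps2, Ide, Upf3a, Mup3, Gstm2, Gstm6 and Trat1 were not called (adjusted p from 0.0573 to 1). In males alone Mir6400, Il1f9, Ide, Mzt2, Susd2, Orm1, Gstm6, Snord4a and Mir192 were not called (adjusted p from 0.0518 to 1).

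The same contrast was then made in the HF/HS livers of the same lines, which the first comparison did not use. On that diet 29 of the 12065 rows were called (0.24%), 17 higher (0.141%) and 12 lower (0.0995%) in CC042. Of the 42 rows called on the control diet, 25 were called again (59.5% of the control calls and 86.2% of the HF/HS calls), 38 had the same sign and 3 were at 0 in all HF/HS libraries. Rprl3 was 0, 3.41 and 1.04 units in male and 0.558, 1.03 and 5.24 units in female CC042 livers on HF/HS, against 6288 to 13068 units (difference -11.86 ± 0.25 SE with adjusted p = 6.4e-07), and Cwc22 was 274 to 424 units, against 4.2 to 8.45 units (5.51 ± 0.19 SE with adjusted p = 1.65e-05). Rprl2, Impad1, Trim12c, Cyp2j6, Cptp, Eno1, Orm1, Smpd1, Bace2, Susd2, Rims4, Il1f9, Ide, Upf3a, Ctps2 and Mzt2 also had the same direction and were called there. Gstm2 (-3.71 ± 0.75 SE with adjusted p = 0.199), Gstm6 (-2.27 ± 0.35 SE with adjusted p = 0.0709) and Mup3 (-5.14 ± 0.96 SE with adjusted p = 0.141) had differences of like size that did not pass there. Synj2 was also not called there (1.03 ± 0.18 SE with adjusted p = 0.103). Trat1 was 0 to 0.153 units in CC042 HF/HS livers, with a difference of the other sign (-0.18 ± 0.24 SE with adjusted p = 1).

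**Figure D3:**
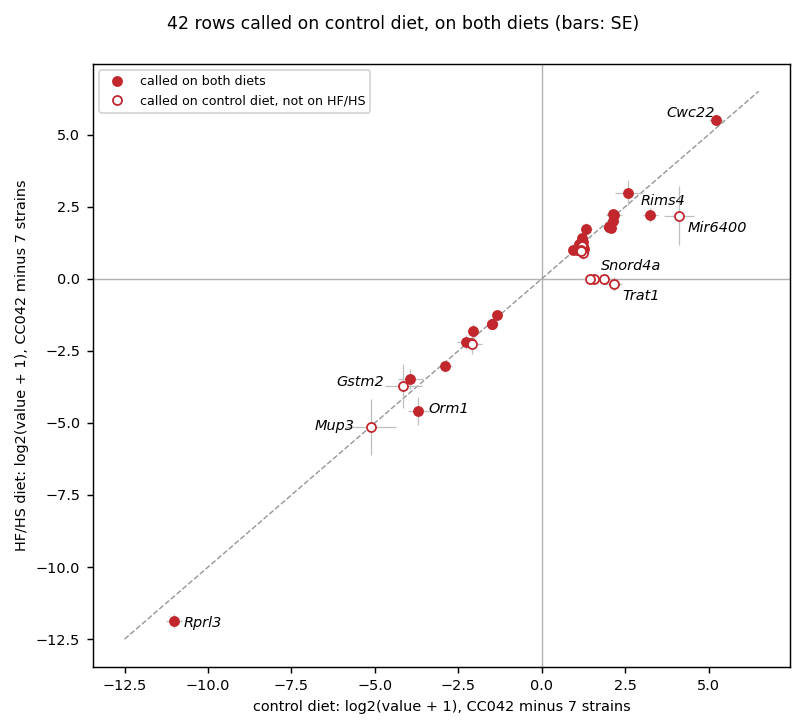
Log2 difference of CC042 from the 7 other lines for the 42 rows called on the control diet (horizontal axis) and the same rows on the HF/HS diet (vertical axis), with SE bars; filled points were called on both diets, and the dashed line marks equal values. Most points lie along the dashed line, from Rprl3 at -11.02 and -11.86 to Cwc22 at 5.22 and 5.51, while Trat1, Mir6400 and Snord4a lie away from it.

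For CC003 and CC060 the levels are given as values only, since levels across library types are not strictly comparable. Rprl3 was 0 to 5.27 units in 6 CC060 control livers, where Rpph1, at 0 to 9.1 units, and Rmrp were low as well, so its level there cannot be set beside that of CC042. In 6 CC003 control livers Rprl3 was 4494 to 6846 units and Rpph1 11563 to 15279 units. Rprl2 was at 0 in all 12 libraries of both lines. Impad1 was 2.2 to 11.02 units in CC060 and 4.86 to 6.44 units in CC003, below the range of the 7 lines. Susd2 was 4.92 to 16.2 units in CC060 and 1.44 to 24.6 units in CC003, both overlapping CC042. Bace2 was 6.49 to 25.4 units and Trim12c 1.74 to 3.12 units in CC060, outside the range of the 7 lines. Cwc22 was 5.95 to 9.67 units in CC060 and 6.93 to 9.72 units in CC003, within the range of the 7 lines. With these 2 lines added, 26 rows were called. Bace2, Ide, Upf3a, Mzt2, Susd2, Rprl2, Trim12c, Impad1 and Rprl3 were no longer among them (adjusted p from 0.0994 to 1).

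The second comparison asked whether the male minus female difference of CC042 lies outside that of the other lines. On the control diet 22 of 12065 rows were called (0.182%), 18 with a higher male minus female difference in CC042 (0.149%) and 4 with a lower one (0.0332%); 1382 had an unadjusted p under 0.05. Orm1, Orm2, Trat1 and Prtn3 had the largest differences. Orm1 was described above: its male minus female difference was 6.38 on the log2 scale in CC042 and 0.11 on average in the other lines, a difference of 6.26 ± 0.24 SE with adjusted p = 1.27e-05. Orm2, its neighbour and a second orosomucoid gene, was 572, 395 and 229.9 units in male CC042 livers, against 21.6 to 204 (median 50.8) units in other males. In female CC042 livers Orm2 was 11.8, 5.26 and 32.3 units, against 28.4 to 1812 (median 65.7) units in other females (5.25 ± 0.51 SE with adjusted p = 0.00742). All 3 CC042 males were above the other males, and the CC042 females overlapped the lowest other females. How reads were divided between Orm1 and Orm2 was not tested.

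The RefSeq promoter of Orm2 (GRCm38.p6, chr4:63362199-63362498, plus strand) is shown because C/EBP factors are known to bind orosomucoid promoters in the acute phase; capitals mark the match to TTGCGCAA, the palindromic C/EBP core, searched on both strands.
Orm2: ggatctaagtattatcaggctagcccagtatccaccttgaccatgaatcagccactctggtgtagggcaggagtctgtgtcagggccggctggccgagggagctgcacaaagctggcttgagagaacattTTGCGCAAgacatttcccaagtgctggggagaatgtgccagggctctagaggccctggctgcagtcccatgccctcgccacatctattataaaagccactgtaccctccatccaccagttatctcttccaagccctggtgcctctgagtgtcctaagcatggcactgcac
The match starts 120 bases before the transcription start, and 60 of 32851 promoters (0.18%) hold it.

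Prtn3, the gene of the neutrophil protease proteinase 3, was 52.2, 39.97 and 30.5 units in male CC042 livers and 2.04, 0.434 and 7.63 units in female CC042 livers (4.01 ± 0.41 SE with adjusted p = 0.00639). In the other lines it was 0 to 4.21 units in males and 0 to 35.6 units in females. The sex difference was not called without library CC011 female 2 or CC011 female 3 (adjusted p from 0.06 to 0.093). The summed level of 12 measured neutrophil markers was 14.8 to 23.7 units in male and 8.27 to 16.5 units in female CC042 livers, against 3.48 to 148 units in male and 4.19 to 639 units in female livers of the others; Mpo was at 0 in all 6 CC042 livers, and the part of these cells in the Prtn3 level was not tested.

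Trat1, the gene of a T cell receptor adaptor, was 17.3, 26.1 and 30.5 units in male CC042 livers and 0.167, 0 and 0 units in female CC042 livers, with 0 to 1.59 units in the other lines (4.70 ± 0.29 SE with adjusted p = 0.000174). Cxcl14, a chemokine gene, was 11.5, 10.9 and 10.9 units in male CC042 livers and 0.156, 0.464 and 0.655 units in female CC042 livers, with 0.0382 to 4.23 units in the other lines (3.14 ± 0.30 SE with adjusted p = 0.0048). Trat1 met the minimum mean of 1 unit only through the 3 male CC042 livers. Both genes stood out in the 3 male control livers, and on HF/HS the male CC042 livers were at 0 to 0.15 units for Trat1 and 0.609 to 0.884 units for Cxcl14. The summed level of 25 measured T and NK cell markers was 13.8 to 14.5 units in male and 16.4 to 18.3 units in female CC042 livers, against 5.79 to 52.2 units in male and 11.04 to 88.9 units in female livers of the others, and the T cell marker Cd3e was 0 to 0.272 units in CC042 livers; the part of T cells in the Trat1 level was not tested. Cd4, a marker of that list, was at 4.06, 5.12 and 6.69 units in male and 0.294, 0.311 and 0.159 units in female CC042 livers, against 0.16 to 3.21 and 0.125 to 3.08 units in the others, and its sex difference did not pass (1.89 ± 0.44 SE with adjusted p = 0.173).

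Fam171b, described above, which met the minimum mean through CC042 alone, was higher in male than in female CC042 livers (2.26 ± 0.23 SE with adjusted p = 0.00587). Isyna1, the inositol phosphate synthase gene, was 19.1, 17 and 10.5 units in male and 3.46, 3.68 and 5.58 units in female CC042 livers (1.82 ± 0.14 SE with adjusted p = 0.000691). The other lines had 2.25 to 6.05 units in males and 2.36 to 10.4 units in females. On HF/HS Isyna1 was 5.45, 4.78 and 6 units in male and 6.54, 5.84 and 2.68 units in female CC042 livers. On the control diet Susd2 had the opposite sign, as did Slc6a9, a glycine transporter gene, at 7.75, 7.57 and 6.66 units in male and 13.9, 22.2 and 21.8 units in female CC042 livers (-1.29 ± 0.16 SE with adjusted p = 0.0156). Itgb2, which encodes the partner chain of Itgal, also passed (0.78 ± 0.11 SE with adjusted p = 0.045), with 8.19, 8.04 and 8.58 units in male and 5.73, 4.68 and 8.21 units in female CC042 livers; all 6 lay within the range of the other lines. Of the 22 calls, 4 rest on a single library of Mir3105, Mir680-1, Snord4a or Mir192, and 17 were also called with single libraries as the unit. Slc6a9 was not called without library CC040 female 1 or CC041 female 1 (adjusted p from 0.0651 to 0.0686), and Itgb2 was not called in 29 of 54 fits that left out 1 library or line. With a pseudocount of 0.1 Prtn3, Mir3105, Mir680-1, Fam171b, Itgb2, Susd2, Mir192 and Snord4a were not called (adjusted p from 0.0574 to 0.339). With a pseudocount of 5 Mki67, Capg and Lilrb4a were not called (adjusted p from 0.0535 to 0.0692). With no filter on low values Mki67, Armcx4, Capg, Gm14295, Gm4724, Lilrb4a, Itgb2, Pgap2 and Slc6a9 were not called (adjusted p from 0.0504 to 0.357). With a minimum mean of 5 Mir3105, Lilrb4a, Itgb2, Mir192 and Snord4a were not called (adjusted p from 0.0955 to 0.357). With quantile normalization Capg was not called (adjusted p = 0.0724). With the CC040 column used as labelled Lilrb4a was not called (adjusted p = 0.0702). With libraries as the unit Mir3105, Mir680-1, Itgb2, Mir192 and Snord4a were not called (adjusted p from 0.0688 to 0.0936).

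**Figure D4:**
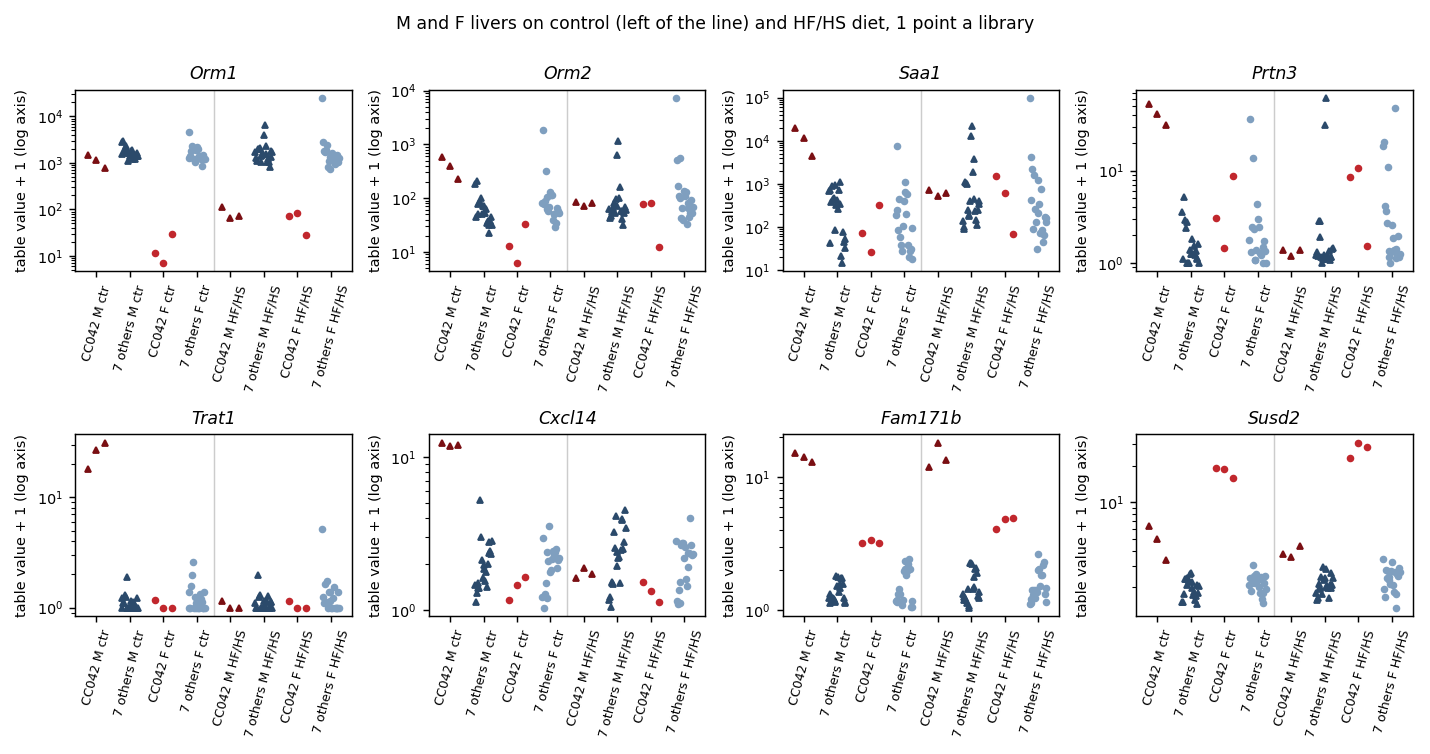
Table value + 1 (log axis) of 8 genes in male (triangles) and female (circles) livers of CC042 (red) and of the 7 other lines (blue), on the control diet left of the grey line and on HF/HS right of it. Orm2, Saa1, Prtn3, Trat1 and Cxcl14 are far higher in the 3 male than in the 3 female CC042 control livers and lower in the male CC042 HF/HS livers, while Fam171b and Susd2 keep their pattern on both diets.

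Saa1 encodes serum amyloid A, a classic acute-phase protein. It was 20130.3, 11551 and 4482 units in male CC042 livers, against 13.7 to 1099.5 (median 345) units in other males. In female CC042 livers Saa1 was 70.3, 25.2 and 324 units, against 17.5 to 7489 (median 98.7) units in other females, and its sex difference of 6.38 ± 1.54 SE with adjusted p = 0.233 did not pass. All 3 male CC042 livers exceeded all other males, and the females lay inside the range of theirs. On HF/HS the male CC042 livers had 521 to 735 units. Of 18 acute-phase genes tested, 1 was called on the line means, against 0.348% of all rows. That was Orm1, which was lower in CC042 (0.108% of all rows were called lower), and no member was called higher. The median log2 difference of the list was 1.17 in males and 0.15 in females, against -0.01 and 0.01 over all rows tested. The median male minus female difference of these 18 genes was 0.65 in CC042 and -0.30 in the other lines.

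Genes of the list of clotting and related plasma proteins had mostly higher means in CC042, with no member called. All 26 genes of the coagulation and fibrinolysis list had a positive difference (25 of 26 after quantile normalization, and 23 of 26 in males alone), with a median of 0.36 on the log2 scale, against 0.00 over all rows. CC042 had the highest mean of the 8 lines in 16 of the 26, against 11.4% of all rows. The largest difference of the list was that of Fetub, the gene of the plasma protein fetuin-B, which is not itself a clotting factor. Fetub was 1647, 1747 and 1926 units in male and 1129.6, 919.9 and 1433 units in female CC042 livers, against 288 to 966 (median 418) units (1.67 ± 0.44 SE with adjusted p = 0.453). Kng1, the kininogen gene, was 3251 to 3954 and 1442 to 3328 units, and Fgb, the fibrinogen beta chain gene, was 5888 to 10644 and 3228 to 10024 units. With single libraries as the unit, which asks whether the CC042 libraries differ from the mean of the other lines rather than from their spread, 22 of the 26 were higher and 0 lower, against 21.8% higher and 20.5% lower of all rows tested.

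Genes of fatty acid oxidation and PPAR-alpha, the nuclear receptor that drives it, had a median below 0. None of the 26 was called, the median was -0.30, and CC042 had the lowest mean of the 8 lines in 11 of them, against 11.4% of all rows; the median was -0.55 in males and -0.14 in females. Cyp4a14, a fatty acid hydroxylase gene, was 0.223, 0.251 and 0.236 units in male and 0.481, 5.3 and 5.04 units in female CC042 livers, against 0.572 to 975 (median 60.2) units (-4.82 ± 1.68 SE with adjusted p = 0.844). Cpt2, a mitochondrial carnitine palmitoyltransferase gene, was 48.7 to 76.3 and 58.7 to 154 units, and Acads, a short-chain acyl-CoA dehydrogenase gene, 86.7 to 99.4 and 95 to 163 units. With single libraries as the unit 14 of the 26 were lower and 1 was higher, against 20.5% lower and 21.8% higher of all rows tested. On HF/HS the median of the list was 0.08, with 5 lower and 5 higher, against 15.8% lower and 20.8% higher of all rows.

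Complement genes had a median of 0.27, with 15 of 32 higher and 4 lower by single libraries, against 21.8% higher and 20.5% lower of all rows; the median was 0.09 in females alone and 0.18 without line CC019. Serine protease inhibitors had a median of 0.17, with 12 of 28 higher and 4 lower; it was 0.10 with a pseudocount of 5, 0.02 in females alone and 0.28 without line CC013. Lipid droplet genes had a median of -0.29, with 7 of 17 lower and 0 higher; it was 0.12 in females alone, -0.12 without line CC032 and -0.11 without line CC040. T and NK cell markers had a median of -0.50 over the 8 tested, which was -0.19 with a pseudocount of 5 and -0.31 without line CC013, and endothelial markers had 0.18 over 13. On HF/HS the complement median was 0.03, with 10 higher and 10 lower by single libraries. That of serine protease inhibitors was 0.06 there, with 10 higher and 3 lower, against 20.8% higher and 15.8% lower of all rows. The HF/HS median was -0.15 for lipid droplets, -0.24 for T and NK cells and 0.08 for endothelium. None of the members of these lists passed the test between lines. Counts by single libraries treat the libraries of a line as separate, so they do not measure the spread between lines. Other lists had medians away from 0 as well, again with no member called. The median was 0.54 for red blood cells (5 of 8 rows positive), with 0.12 in females and 0.88 in males. The summed level of the red blood cell markers lay within the range of the other lines in both sexes. The median was 0.25 for cholesterol synthesis and uptake (21 of 24 positive). It was 0.43 for fatty acid synthesis (14 of 19 positive), with 0.73 in females and -0.07 in males. For ER stress it was -0.25 (11 of 16 negative), although by single libraries 4 rows were higher and 2 lower.

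**Figure D5:**
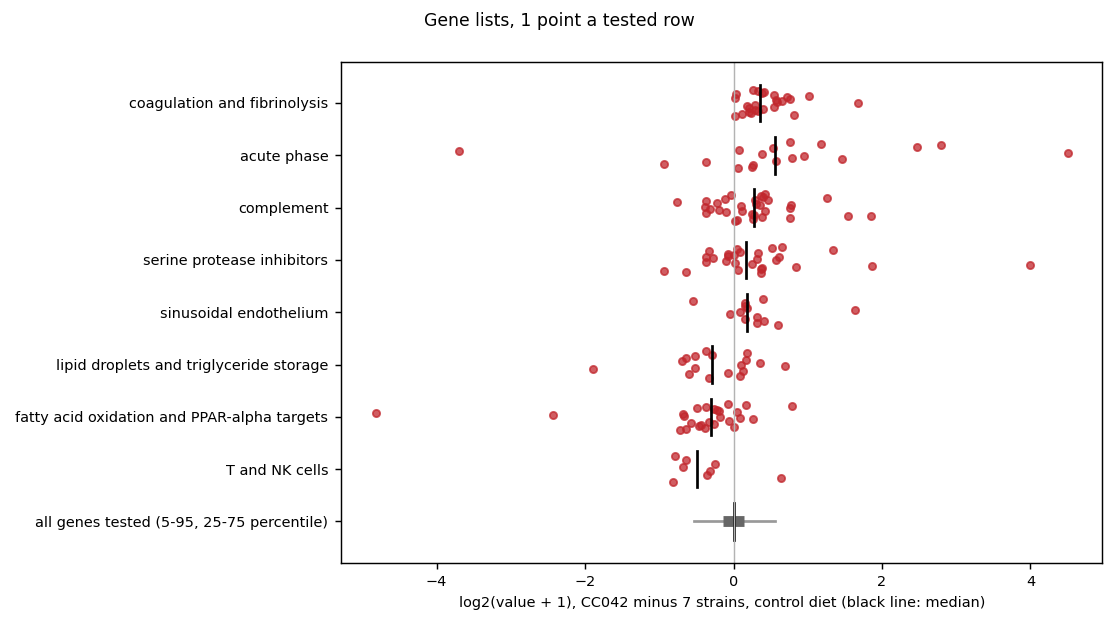
Log2 difference of CC042 from the 7 other lines on the control diet for the tested members of 8 gene lists, 1 point a row, with the median as a black line; the bottom row gives the middle 50% (thick) and 90% (thin) of all 12065 rows. Among these 8 of the 43 lists, the medians run from 0.56 for acute-phase genes and 0.36 for coagulation to -0.30 for fatty acid oxidation and -0.50 for T and NK cell markers. Lists not drawn include red blood cells (0.54), fatty acid synthesis (0.43) and ER stress (-0.25).

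Itgal was 1.98, 1.66 and 1.59 units in male and 1.89, 1.39 and 2.09 units in female CC042 livers, against 1.42 to 10.96 (median 3.72) units in the other lines. CC042 had the lowest mean of the 8 lines, the CC042 livers overlapped the lowest others, and the difference of -0.92 ± 0.47 SE with adjusted p = 1 did not pass. The table gives a level per gene, so it cannot show whether the RNA carries the deletion. The other integrin and ligand genes described here were not called: Itgb7 had a difference of -0.75, Icam2 -0.21, Selplg -0.06, Itgb2 0.05, Icam1 0.12, Itgb1 0.24, Itga4 0.48 and Vcam1 1.02, log2 differences with SE from 0.15 to 0.88.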

How the data were processed

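RNA was extracted from flash-frozen liver with a column kit and libraries were made from 500 ng, per the labels' protocols, which name both a stranded total RNA kit with Ribo-Zero Gold and a stranded mRNA kit. The submitters' processing notes name TopHat2 2.1.1, Bowtie2 2.2.5.0, Cufflinks 2.2.1 and mm10, with no role or order. The deposited FPKM table has 24883 rows and 120 libraries; the authors rescaled it by a formula not given in the sources used here. Starts are printed 1-based. The 1 row lacking a value was dropped.

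Values were log2(value + 1), and the 12065 rows averaging 1 or more in the 47 control libraries were tested. limma 3.58.1 (R 4.3.3; trend and robust prior; 6 residual degrees of freedom; two-sided; adjusted p under 0.05) compared CC042 with 7 strain values; the same was done for male minus female and for HF/HS. It was tested on simulated data.

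Named were, passing over repeated symbols and symbols of predicted genes, the 12 largest calls per direction with 1 sign in both sexes, 5 per direction for the sex difference, up to 4 called per list, the integrin list genes (1 is not reported here) and the 3 longest runs; Fam171b, Rpph1, Rmrp, Cyp2j5, Eno1b, the Gstm and list examples were chosen after their values were seen. The comparison, 43 gene lists and members were chosen with earlier results of these data known.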

Additional observations from a re-analysis of the deposited data

Results flagged for a closer look

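The male minus female difference of CC042 lay outside that of the 7 other lines, by limma's test of that difference, in 22 rows on the control diet. The log2 differences (CC042 minus the mean of the other lines) were 6.26 for Orm1, 5.25 for Orm2, 4.70 for Trat1, 4.01 for Prtn3, 3.88 for Mir684-1, 3.14 for Cxcl14, 3.11 for Mir3105, 2.35 for Mir680-1, 2.26 for Fam171b, 1.82 for Isyna1, 1.73 for Mki67, 1.36 for Armcx4, 1.19 for Capg, 1.14 for Gm14295, 1.11 for Gm4724, 0.87 for Lilrb4a, 0.78 for Itgb2 and 0.77 for Pgap2. The opposite sign, a lower male minus female difference in CC042, was seen in Snord4a (-3.75), Mir192 (-2.88), Susd2 (-1.80) and Slc6a9 (-1.29). Of 54 fits that left out 1 library or line, Capg was not called in 29, Lilrb4a was not called in 20, Mki67 was not called in 12, Gm4724 was not called in 7 and Pgap2 was not called in 7. Mir684-1 had a difference of 1.49 without CC042 female 3, and Gm4724 had 0.61. The calls of Snord4a, Mir3105, Mir192 and Mir680-1 rest on 1 library each. Mki67, a gene of dividing cells, was 1.73, 2.51 and 2.61 units in male and 0.561, 0.733 and 0.494 units in female CC042 livers, and Capg, an actin-capping gene of macrophages, was 3.26, 3.33 and 3.57 units in male and 1.39, 1.23 and 2.01 units in female CC042 livers, both inside or near the range of the other lines.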

How the results depend on the processing

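The 42 calls on the control diet became 164 with no filter on low values, 20 with a mean of at least 5, and 26 with CC003 and CC060 added. Leaving out 1 library or line gave 27 to 48 calls, the lowest without line CC032. For the sex difference (22 calls) the count was 161 with no filter and 7 with a mean of at least 5, and 17 to 33 with 1 library or line left out. For HF/HS (29 calls) it was 171 with no filter, 17 with CC003 and CC060 added, and 25 to 33 with 1 left out. The cause was not tested. With libraries as the unit, which tests against the spread between libraries and not between lines, the counts were 5104 for the control diet, 1212 for the sex difference and 4406 for HF/HS; with the replicate number as a block they were 5236, 1282 and 4416. The numbers did not pair the samples: deviations of same-numbered CC042 and other libraries correlated at -0.17 to 0.17 (median 0.00), over 0.1 in 9 of 41 pairs. Trat1 reversed in females alone, at -0.19 (adjusted p = 1). The scale is log2(value + 1), which understates changes of low genes, and the reads behind each value are unknown.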

Other observations

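Mx2 and Gbp11, genes that interferons induce, had values in CC042 livers apart from the other lines without passing the test, and were chosen after their values were seen. Mx2 was 68.7, 66.3 and 66.1 units in male and 59.3, 55.9 and 60.02 units in female CC042 livers, against 0.439 to 32.8 (median 3.46) units (3.57 ± 1.17 SE with adjusted p = 0.767). Gbp11 was 38.2, 41.9 and 41.4 units in male and 69.5, 60.3 and 72 units in female CC042 livers, against 0.857 to 33 (median 5.19) units (3.02 ± 0.74 SE with adjusted p = 0.383). In both genes every CC042 liver was above every other liver, which held for 0.671% of all rows tested. Of the 44 interferon response rows tested, 21 had a positive and 23 a negative difference.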
